A study of Mus musculus with 21 samples.

Results

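The genes described here are 35 genes of cholesterol and fatty acid synthesis, among the 35266 genes of the deposited tables. They were chosen by symbol as genes under the control of the sterol regulatory element binding proteins (SREBPs), without use of their measured values in the rule itself. All 35 were found in the count table and in the table of length-scaled transcript levels (TPM), and all 35 passed the filter on low counts (CPM, counts scaled to library size, over 1 in at least 3 libraries). They fall into 6 sets by role, which are the mevalonate steps (6 genes), the steps from squalene to cholesterol (11), the SREBPs and the proteins that hold or escort them (5), sterol transfer (1), fatty acid synthesis (5), and elongation and desaturation of fatty acids (7).

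The study asked how RNA levels in 2 opposed neuron types of the hypothalamic arcuate nucleus change when mice go without food. AGRP neurons, which drive feeding, were taken from NPY-hrGFP mice, and POMC neurons, which restrain it, from Pomc-GFP mice, both on C57BL/6J. The mice were males of postnatal days 46 to 56, caged singly, and were either fed freely or food-deprived (FD, water alone) for 24 h. There were 5 fed and 6 FD AGRP libraries and 5 fed and 5 FD POMC libraries. Each library held the fluorescent neurons of 1 mouse, picked by hand after dissociation (44 to 214 cells), and its RNA was amplified without molecular identifiers. The reporter for AGRP neurons is driven from *Npy*, so the label AGRP rests on the overlap of *Npy* and *Agrp* in this nucleus. Summed *Agrp* and *Npy* stood at 12064 to 68921 TPM in the AGRP libraries and at 5.45 to 226 TPM in the POMC libraries, and summed *Pomc* and *Cartpt* at 8809 to 37160 TPM in POMC and 114 to 227 TPM in AGRP libraries.

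Libraries held 9822298 to 37663979 counts on genes (median 19189780), so a value of 3 counts, treated as the floor, was 0.0797 to 0.305 CPM. The 20 markers of astrocytes, oligodendrocytes, microglia, endothelial cells and tanycytes summed to 71.4 to 128 TPM in fed AGRP, 84.5 to 129 in FD AGRP, 97.1 to 147 in fed POMC and 48.0 to 104 in FD POMC libraries. *C1qa* was at 0 in 21 of 21 libraries and *Tmem119* and *Cldn5* in 20, while the oligodendrocyte gene *Mbp* was at 0 in none. Of the 13 markers tested, *Aldh1l1* was higher in FD than fed AGRP neurons, and *Vim* differed between the cell types in its response. In pooled cells, fewer cells with a transcript and less transcript per cell cannot be told apart.

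Cholesterol and fatty acids are both built from acetyl-CoA. Sterol synthesis runs through mevalonate, farnesyl diphosphate, squalene and lanosterol to cholesterol, and fatty acid synthesis through malonyl-CoA to palmitate, which is then elongated and desaturated. When sterols are low, SCAP carries the SREBPs from the endoplasmic reticulum to the Golgi, where proteases release the active factor, and when sterols are high, INSIG proteins keep SCAP and SREBP in the endoplasmic reticulum. In the adult brain cholesterol is made locally, and astrocytes pass part of theirs to neurons.

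Upstream sequences of 4 genes are shown. *Cyp51*, *Elovl5* and *Nsdhl* are those of the 6 genes called in FD against fed AGRP neurons that matched a RefSeq start window, which *Scd1*, *Scd2* and *Fdft1* did not, and *Hmgcs1* holds the sterol regulatory element letters TCACCCCAC. RefSeq start windows in GRCm38.p6, the mm10 assembly, were matched for 28 of the 35 genes (37 windows), and the 250 bases before each start were searched on both strands. TCACCCCAC was in 1 of the 37 windows (2.70%, against 0.496% of all 32851 windows). Only these exact letters were searched for the sterol regulatory element, so windows without them may hold other forms of it. The CCAAT box, the letters bound by NF-Y, was in 24 of them (64.9%, against 33.8% of all windows), and the E-box CACGTG in 6 (16.2%, against 6.02%). Capitals mark CCAAT or its reverse complement ATTGG and, in *Hmgcs1*, also TCACCCCAC. The E-box CACGTG is not marked, and the *Elovl5* run holds it in lower case. No motif overlapped another in the 4 sequences. Each run ends before the first base of the gene in the count table, which left out 49 bases of the *Cyp51* window, with the 1 CCAAT box it held, and 1 base of the *Elovl5* window. The spans are chr5:4104747-4104947 on the minus strand for *Cyp51*, chr9:77917115-77917363 on the plus strand for *Elovl5*, chrX:72918271-72918520 on the plus strand for *Nsdhl* and chr13:119690101-119690350 on the plus strand for *Hmgcs1*.
Cyp51: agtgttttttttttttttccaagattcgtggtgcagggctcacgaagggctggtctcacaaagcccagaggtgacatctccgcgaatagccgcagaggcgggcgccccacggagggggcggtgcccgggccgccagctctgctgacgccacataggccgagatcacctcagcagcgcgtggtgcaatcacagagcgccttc
Elovl5: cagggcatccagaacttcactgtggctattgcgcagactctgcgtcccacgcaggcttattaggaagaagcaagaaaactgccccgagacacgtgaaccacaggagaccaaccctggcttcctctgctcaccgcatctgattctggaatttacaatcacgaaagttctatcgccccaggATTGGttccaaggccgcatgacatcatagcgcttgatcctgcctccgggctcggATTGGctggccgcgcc
Nsdhl: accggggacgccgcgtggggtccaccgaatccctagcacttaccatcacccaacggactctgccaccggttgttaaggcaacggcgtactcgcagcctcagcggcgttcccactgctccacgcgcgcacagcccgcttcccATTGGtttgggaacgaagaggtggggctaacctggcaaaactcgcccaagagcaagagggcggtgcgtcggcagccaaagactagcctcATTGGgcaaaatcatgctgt
Hmgcs1: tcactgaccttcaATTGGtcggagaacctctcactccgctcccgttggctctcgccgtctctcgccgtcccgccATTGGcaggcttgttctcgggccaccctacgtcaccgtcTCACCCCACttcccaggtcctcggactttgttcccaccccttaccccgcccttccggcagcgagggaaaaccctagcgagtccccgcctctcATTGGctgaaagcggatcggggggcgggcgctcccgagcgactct
A match is a run of letters and no evidence of binding.

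Food deprivation moved few of the 35 genes, and in AGRP neurons it moved genes of the same pathway in opposite directions. In AGRP neurons 3 of the 35 genes were upregulated (*Cyp51*, *Scd1* and *Elovl5*) and 3 downregulated (*Scd2*, *Fdft1* and *Nsdhl*) at an adjusted p (q) under 0.05 in the edgeR quasi-likelihood test over 16513 genes. Over all genes tested 5.87% were called higher and 4.43% lower in this comparison, beside 8.57% of the 35 genes in each direction. With the added criteria of the study (a log2(fold-change) beyond 1 in either direction, and 1 group or more averaging above 20 CPM, as 26 of the 35 genes did) *Cyp51*, *Scd1* and *Scd2* remained, against 4.46% of all genes. The median log2(fold-change) of the 35 genes was −0.27 in AGRP neurons, against −0.02 over all genes tested, with 24 genes below 0 and 11 above. In POMC neurons 1 gene was called, *Elovl5*, which was lower in FD mice. There 0.182% of all genes were called higher and 0.194% lower. By edgeR 0.266% met the added criteria, which none of the 35 genes did. By limma-voom, the test that the study used, *Msmo1* met them in POMC neurons (log2(fold-change) −1.17, q = 0.036). The POMC median was −0.15 for the 35 genes and −0.02 for all genes.

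**Figure D1:**
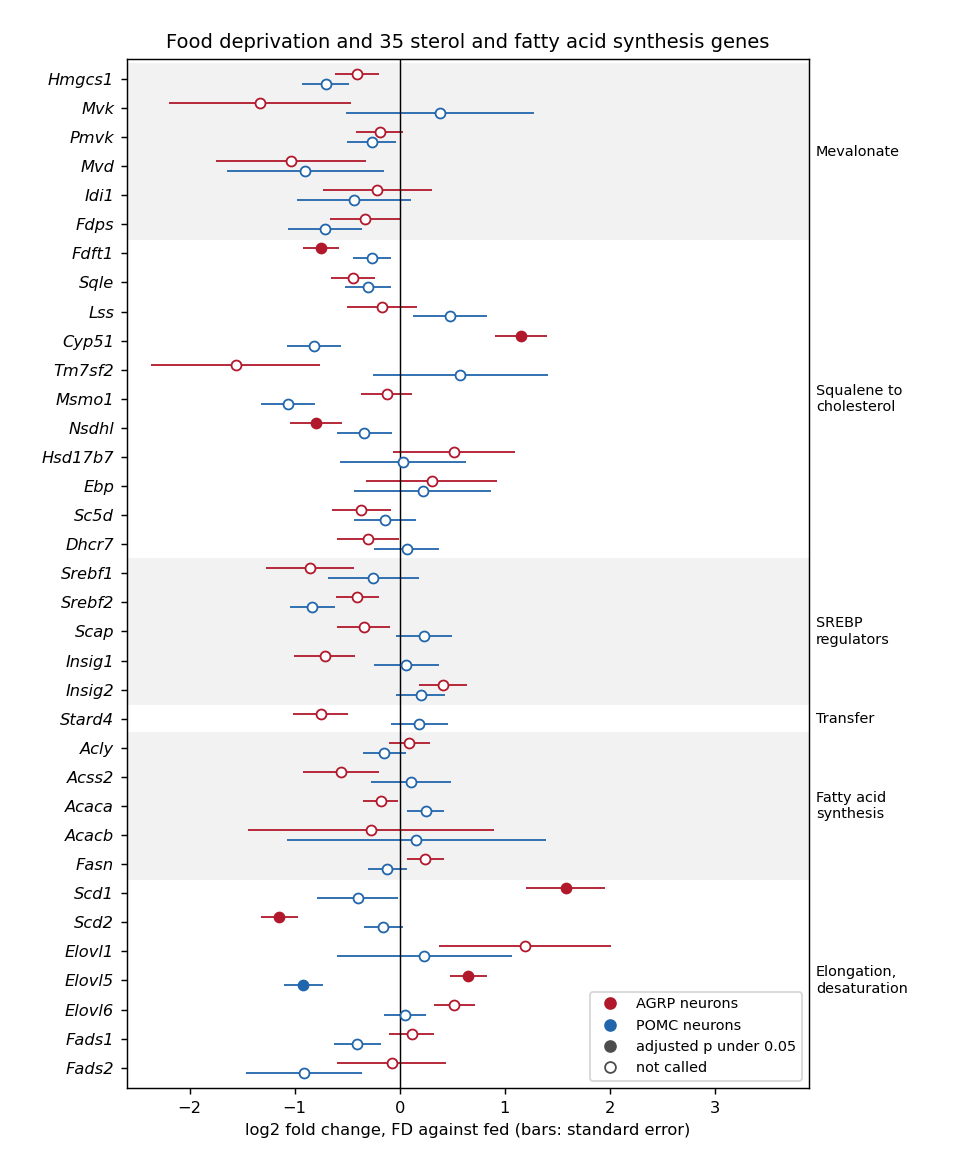
Log2 fold change of FD against fed neurons (horizontal axis, bars give the standard error) for the 35 genes in rows by role, with AGRP neurons in red and POMC neurons in blue. Filled points are those with an adjusted p under 0.05. *Cyp51* and *Elovl5* lie on opposite sides of 0 in the 2 cell types, and *Scd1* and *Scd2* on opposite sides of 0 within AGRP neurons.

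*Cyp51* (ENSMUSG00000001467, mm10 chromosome 5, 4081145 to 4104746, minus strand) encodes lanosterol demethylase, the first enzyme to act on the sterol ring. Normalized CPM (CPM after TMM scaling) in the 5 fed AGRP libraries were 119, 120, 101, 123 and 148, and in the 6 FD libraries ranged from 107 through a median of 263 to 479. Of the FD libraries 5 of 6 lay above every fed library, and FD replicate 1, at 107, lay among the fed values. The log2(fold-change) was 1.15 ± 0.25 (SE, q = 0.0024), a 2.22-fold increase, and 1.32 (q = 1.1e-04) without FD replicate 1. In POMC neurons the values were 144, 167, 137, 181 and 121 in fed and 66.6, 102, 98.4, 101 and 58.6 in FD libraries. These POMC groups did not overlap, yet the difference of −0.81 ± 0.26 did not pass the test (q = 0.15). The AGRP response to deprivation exceeded the POMC response by 1.97 ± 0.36 (edgeR interaction, q = 6.8e-04). Exons of *Cyp51* share 166 bases with *Akap9* in a later GENCODE release, and *Akap9* itself was at 0.20 ± 0.18 in AGRP neurons (q = 0.57).

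The other enzymes between squalene and cholesterol did not follow *Cyp51*. *Fdft1* (ENSMUSG00000021273, mm10 chromosome 14, 63145153 to 63177793, minus strand) encodes squalene synthase, which commits farnesyl diphosphate to sterols. Its normalized CPM were 109, 131, 111, 111 and 118 in fed AGRP libraries and 55.1 to 95.0 (median 61.3) in FD libraries. The groups did not overlap, and the log2(fold-change) was −0.75 ± 0.17 (q = 0.0040), a 1.68-fold decrease. In POMC neurons *Fdft1* was 123, 94.5, 115, 125 and 150 in fed and 111, 91.4, 89.7, 119 and 95.2 in FD libraries, which overlap (−0.26 ± 0.18, q = 0.60), and the difference between cell types was not past the threshold (−0.48 ± 0.25, q = 0.28). *Fdft1* exons share 774 bases with *Ctsb* on the same later annotation, and *Ctsb* was at −0.13 ± 0.18 in AGRP neurons (q = 0.75). Between the cell types *Ctsb* was lower in AGRP than POMC neurons in FD (−0.83 ± 0.18, q = 0.0011) and fed mice (−0.86 ± 0.19, q = 0.0031).

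*Nsdhl* (ENSMUSG00000031349, mm10 chromosome X, 72918557 to 72958514, plus strand) encodes a sterol dehydrogenase that takes part in removing methyl groups after the *Cyp51* step. It was at 58.7, 46.2, 56.1, 72.6 and 32.5 normalized CPM in fed AGRP libraries and at 16.7 to 39.4 (median 30.7) in FD libraries. Fed replicate 5, at 32.5, lay inside the FD range. The log2(fold-change) of −0.80 ± 0.25 (q = 0.038) was the least secure of the 6 calls, since q rose above 0.05 (0.0533 to 0.139) when any 1 of 7 libraries was left out (FD replicates 1, 2, 4 and 5, fed replicates 1, 3 and 4). POMC values were 47.3, 42.2, 40.8, 35.2 and 59.1 in fed and 34.1, 44.1, 38.3, 26.5 and 34.5 in FD libraries (−0.34 ± 0.26, q = 0.66).

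The remaining 8 genes of this set were not called in either cell type. In AGRP neurons their log2(fold-change) ran from −1.56 ± 0.81 for *Tm7sf2*, a sterol reductase with a highest group mean of 7.59 CPM, to 0.52 ± 0.58 for *Hsd17b7*, a ketosteroid reductase. *Sqle*, the squalene epoxidase, was at −0.44 ± 0.21 (q = 0.21) and *Dhcr7*, the reductase of the last step, at −0.30 ± 0.29 (q = 0.61). *Lss*, which closes the sterol rings, was at −0.17 ± 0.33, *Sc5d*, a sterol desaturase, at −0.36 ± 0.28 and *Ebp*, a sterol isomerase, at 0.31 ± 0.63. *Msmo1*, the methylsterol monooxygenase, came nearest to a call in POMC neurons, with 107, 67.9, 56.6, 58.1 and 58.3 normalized CPM in fed and 35.9, 18.8, 24.2, 42.7 and 45.0 in FD libraries. Its groups did not overlap, and the log2(fold-change) was −1.06 ± 0.26 (q = 0.056), with q = 0.036 in limma-voom and 0.0056 in DESeq2. The paper's annotation analysis lists zymosterol biosynthesis, with *Msmo1*, among its POMC pathways. In AGRP neurons *Msmo1* was at −0.12 ± 0.24 (q = 0.83).

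**Figure D2:**
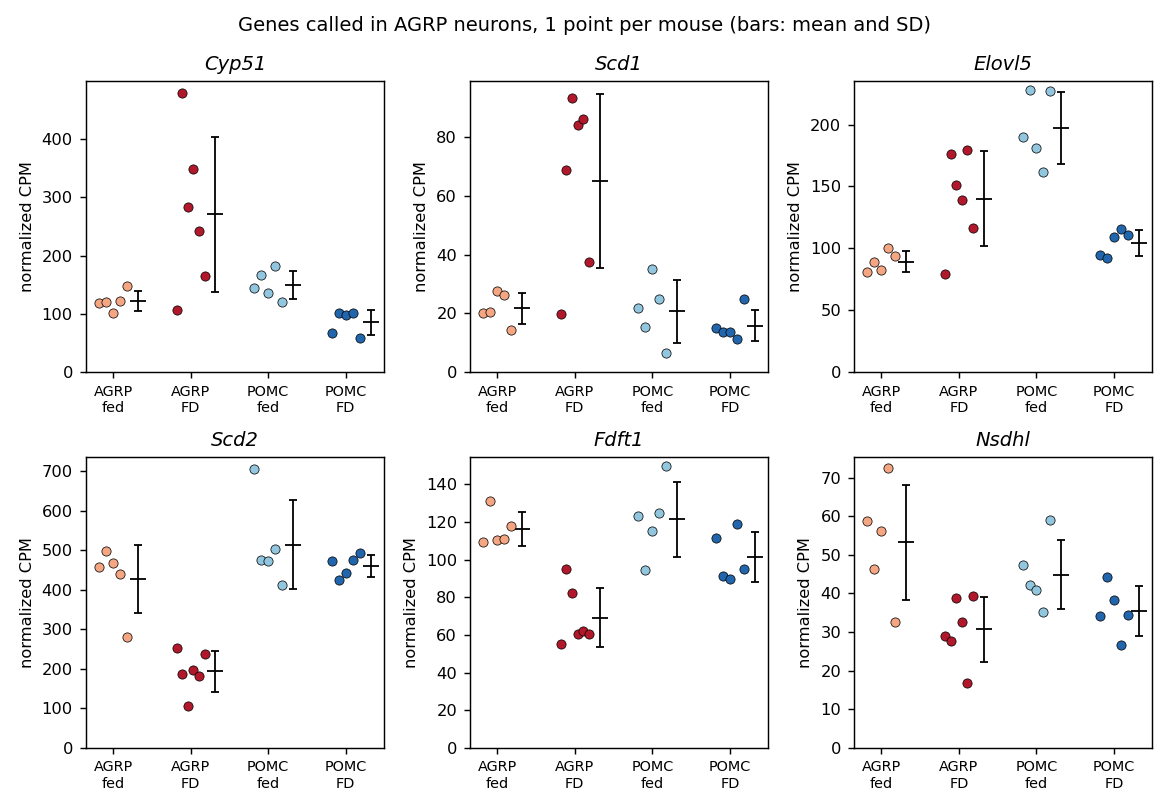
Normalized CPM (vertical axes, from 0) of the 6 genes called between FD and fed AGRP neurons, with 1 point per mouse and bars for the mean and SD of each group. In *Cyp51*, *Scd1* and *Elovl5* a single FD AGRP library (replicate 1) lies at the fed level, while *Scd2* and *Fdft1* show no overlap between fed and FD AGRP libraries.

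The 6 mevalonate genes were below 0 in AGRP neurons in 6 of 6 cases, but none was called (log2(fold-change) −1.33 ± 0.87 for *Mvk* to −0.19 ± 0.22 for *Pmvk*). *Pmvk*, phosphomevalonate kinase, had the highest TPM of the set when the 4 group means were averaged, although in fed AGRP libraries *Hmgcs1* had the higher mean (118 ± 22.5 against 110.4 ± 27.1 TPM). It was at 37.1, 62.0, 38.7, 61.9 and 39.9 normalized CPM in fed AGRP libraries, 34.6 to 47.8 (median 41.6) in FD AGRP libraries, 96.2, 111, 57.1, 80.4 and 78.1 in fed POMC libraries and 39.6, 72.9, 72.9, 88.4 and 77.1 in FD POMC libraries. The fed and FD values of *Pmvk* overlapped in both cell types. *Hmgcs1*, the synthase that opens the mevalonate pathway, was at −0.41 ± 0.21 in AGRP (q = 0.26) and −0.71 ± 0.22 in POMC neurons (q = 0.15). *Fdps*, which makes farnesyl diphosphate, was at −0.33 ± 0.33 and −0.71 ± 0.35 (q = 0.62 and 0.42). *Mvk*, *Mvd* and *Idi1*, a kinase, a decarboxylase and an isomerase of the pathway, were lowly expressed. Their highest group means were 7.18, 5.18 and 6.89 CPM and their standard errors 0.52 to 0.90. Changes larger than those errors could therefore go uncalled, as with *Mvk* at −1.33 ± 0.87 in AGRP neurons.

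None of the 5 genes for SREBPs and their regulators was called in either cell type. *Srebf2*, which encodes the SREBP best known for sterol genes, was at 112, 146, 109, 184 and 145 normalized CPM in fed and 61.8 to 165 (median 94.1) in FD AGRP libraries, which overlap (−0.40 ± 0.20, q = 0.24). In POMC neurons it was at 184, 169, 167, 156 and 147 in fed and 85.4, 95.6, 99.1, 92.2 and 89.7 in FD libraries. Those POMC groups did not overlap and spread little within each group, but with a log2(fold-change) of −0.83 ± 0.21 the adjusted p was 0.072, against 0.019 in DESeq2 and 0.063 in limma-voom. *Srebf1*, which encodes the SREBP best known for fatty acid genes, ran from 8.46 to 29.9 (median 12.98) in FD AGRP libraries, against 13.5, 41.3, 20.7, 38.2 and 24.8 in fed ones (−0.86 ± 0.41, q = 0.22). In POMC neurons *Srebf1* was at 39.8, 24.6, 27.8, 22.4 and 40.4 in fed and 4.85, 30.1, 45.0, 30.8 and 19.3 in FD libraries (−0.25 ± 0.43, q = 0.89). Exons of *Srebf1* share 109 bases with *Rai1* on the later annotation, and *Rai1* was called higher in FD than fed AGRP neurons (0.92 ± 0.24, q = 0.011). *Scap*, the escort, was at −0.34 ± 0.25 in AGRP and 0.23 ± 0.27 in POMC neurons.

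*Insig1*, itself a known SREBP target, was at 53.2, 69.1, 72.0, 46.2 and 27.1 normalized CPM in fed and 17.9 to 56.3 (median 31.99) in FD AGRP libraries (−0.72 ± 0.29, q = 0.13). *Insig2* was at 68.7, 48.7, 67.2, 43.6 and 63.0 in fed and 51.2 to 111 (median 77.0) in FD AGRP libraries (0.41 ± 0.23, q = 0.29). In each gene the groups overlapped. In POMC neurons *Insig1* was at 39.3, 63.7, 63.4, 71.6 and 34.2 in fed and 79.5, 57.0, 46.8, 53.6 and 47.6 in FD libraries, and *Insig2* at 106, 80.5, 75.5, 41.2 and 74.0 in fed and 67.2, 83.6, 89.0, 82.4 and 111 in FD libraries. Neither passed the test there (0.06 ± 0.31 and 0.20 ± 0.23, q = 0.97 and 0.81).

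*Stard4*, a carrier that moves cholesterol between membranes, was at 84.1, 76.1, 116, 68.7 and 89.6 normalized CPM in fed and 26.5 to 96.7 (median 42.8) in FD AGRP libraries. FD replicate 2, at 96.7, was the 1 FD library above the lowest fed value, and the log2(fold-change) of −0.75 ± 0.26 missed the threshold (q = 0.060). It was called by limma-voom (q = 0.018) and DESeq2 (q = 0.033). By edgeR it was called with the spike-in set as a block (q = 0.039), and at −1.03 without FD replicate 2 (q = 0.0054). With that set taken by volume alone it was not called (q = 0.053). Nor was it called with the compared groups alone (q = 0.080) or the replicate number as a block (q = 0.145). In POMC neurons it was at 87.6, 45.7, 52.7, 46.7 and 42.4 in fed and 69.5, 55.3, 53.5, 60.8 and 74.3 in FD libraries (0.19 ± 0.27, q = 0.86).

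The 5 enzymes that make palmitate and its precursors were not called in any of the comparisons. *Acly*, which makes cytosolic acetyl-CoA from citrate and had the highest TPM of the set by the same average, was at 227, 198, 164, 211 and 168 normalized CPM in fed and 157 to 294 (median 202) in FD AGRP libraries, and at 161, 146, 164, 225 and 184 in fed and 192, 233, 155, 88.7 and 126 in FD POMC libraries. The differences of 0.09 ± 0.20 in AGRP and −0.15 ± 0.21 in POMC neurons were smaller than their errors. *Fasn*, fatty acid synthase, was at 0.24 ± 0.17 and −0.12 ± 0.18 (q = 0.46 and 0.87), and *Acss2*, which makes acetyl-CoA from acetate, at −0.56 ± 0.36 and 0.11 ± 0.38 (q = 0.40 and 0.95).

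Of the acetyl-CoA carboxylases, which make malonyl-CoA, *Acaca* was at 101, 97.8, 109, 97.6 and 82.5 normalized CPM in fed and 65.0 to 108 (median 88.4) in FD AGRP libraries (−0.18 ± 0.17, q = 0.59). In POMC neurons it was at 91.5, 102, 79.8, 99.4 and 103 in fed and 144, 117, 100, 110 and 93.1 in FD libraries (0.25 ± 0.17, q = 0.62). *Acacb*, the mitochondrial carboxylase, was barely detected, at 0 to 4.17 normalized CPM in FD AGRP, 0.548 to 3.16 in fed AGRP, 0 to 2.34 in FD POMC and 0.0786 to 1.86 in fed POMC libraries, so no change in it was detectable.

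Elongation and desaturation held 3 of the 6 calls in AGRP neurons. *Scd1* (ENSMUSG00000037071, mm10 chromosome 19, 44394451 to 44407709, minus strand) and *Scd2* (ENSMUSG00000025203, chromosome 19, 44293676 to 44306864, plus strand) are neighbouring genes for stearoyl-CoA desaturases, which put the first double bond into saturated fatty acids. *Scd1* was at 20.2, 20.4, 27.5, 26.4 and 14.5 normalized CPM in fed AGRP libraries and at 19.95 to 93.5 (median 76.6) in FD libraries. The FD libraries other than replicate 1, which was at 19.95, lay above every fed library, and the log2(fold-change) was 1.58 ± 0.38 (q = 0.0060), a 2.99-fold increase. *Scd2* went the other way, from 458, 498, 468, 439 and 280 in fed to 105 to 252 (median 192) in FD AGRP libraries. These groups did not overlap, and *Scd2* had the lowest q of the 35 genes in this comparison (−1.15 ± 0.18, q = 5.1e-05), a 2.21-fold decrease.

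In POMC neurons *Scd1* was at 21.8, 15.4, 35.3, 24.9 and 6.52 in fed and 15.1, 13.7, 13.7, 11.4 and 24.9 in FD libraries (−0.40 ± 0.38, q = 0.75). *Scd2* was at 707, 475, 473, 504 and 412 in fed and 473, 424, 442, 475 and 493 in FD POMC libraries (−0.16 ± 0.19, q = 0.82). Both genes overlapped between fed and FD mice there, and for both the response differed between the cell types (interaction 1.98 ± 0.54, q = 0.022, for *Scd1* and −0.99 ± 0.26, q = 0.016, for *Scd2*). The *Scd1* interaction had q = 0.088 in limma-voom and 0.051 without fed POMC replicate 3. *Scd1* and *Scd2* are similar in coding sequence, and the uniquely mapped reads of each could include a share of the other that these tables do not resolve.

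Oligodendrocytes also express *Scd2*. The 4 oligodendrocyte markers summed to 29.0 to 43.6 TPM in fed and 20.995 to 37.0 TPM in FD AGRP libraries, and *Mobp* was at 0 in 13 of the 21 libraries. FD AGRP replicate 1, the library in which *Cyp51*, *Scd1* and *Elovl5* stayed at the fed level, had the highest *Aldh1l1* (5.15 TPM) and *Gfap* (4.33 TPM) of the 21, while the other astrocyte markers there were at 0 (*Aqp4*) and 0.312 TPM (*Gja1*). The 4 astrocyte markers summed to 0.326 to 6.07 TPM in fed AGRP, 0.328 to 9.79 in FD AGRP, 0.258 to 2.98 in fed POMC and 0.218 to 3.58 in FD POMC libraries. The part of either in these results was not tested. Without that library *Scd1* was at 1.77 (q = 0.0010), *Elovl5* at 0.77 (q = 0.0015) and *Scd2* at −1.24 (q = 2.4e-05).

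*Elovl5* (ENSMUSG00000032349, mm10 chromosome 9, 77917364 to 77984519, plus strand), an elongase of polyunsaturated fatty acids, was called in both cell types and in opposite directions. In AGRP neurons it was at 80.6, 88.9, 82.1, 101 and 93.7 normalized CPM in fed and 79.0 to 180 (median 145) in FD libraries, with 5 of 6 FD libraries above every fed library. The log2(fold-change) was 0.65 ± 0.18 (q = 0.016), a 1.57-fold increase. In POMC neurons it fell from 190, 228, 181, 162 and 227 in fed to 94.7, 92.4, 109, 116 and 111 in FD libraries, which do not overlap (−0.92 ± 0.19, q = 0.014, a 1.89-fold decrease). The POMC call had q = 0.052 without FD replicate 2 and 0.057 without fed replicate 2. The interaction was 1.57 ± 0.26 (q = 1.9e-04), the lowest q of the 35 genes in that test.

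The other 4 genes of the set were not called between FD and fed mice. *Elovl6*, which elongates palmitate, was at 0.52 ± 0.19 in AGRP neurons (q = 0.089) and 0.05 ± 0.20 in POMC neurons. *Fads1* and *Fads2*, the desaturases of polyunsaturated fatty acids, were at 0.11 ± 0.22 and −0.08 ± 0.52 in AGRP and −0.40 ± 0.23 and −0.91 ± 0.55 in POMC neurons. *Elovl1*, an elongase of very long chains, had an SD above its mean in FD AGRP libraries (16.5 ± 24.6 TPM, n = 6).

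The spike-in volume varied between libraries (1 µl, 10 µl or a volume set by the cell number) and was compared as a possible batch. Within these sets the mean of *Cyp51* was higher in FD than fed AGRP libraries by 1.03, 1.22 and 1.10 on the log2 scale (1 µl, 10 µl, by cell number), of *Scd1* by 2.07, 1.33 and 1.55, and of *Elovl5* by 1.15, 0.58 and 0.48. The values for *Scd2* were −1.33, −1.15 and −0.99, for *Fdft1* −0.81, −0.998 and −0.56 and for *Nsdhl* −1.78, −0.50 and −0.72. FD AGRP replicate 2 (50 cells, 1 µl) could belong to the first or the last of these sets and was placed in the last. Placed with the 1 µl libraries instead, it moved the values in these sets (1 µl, by cell number) to 1.60 and 0.53 for *Cyp51*, 1.92 and 1.45 for *Scd1*, 1.14 and 0.24 for *Elovl5*, −1.31 and −1.01 for *Scd2*, −0.47 and −0.73 for *Fdft1* and −1.38 and −0.63 for *Nsdhl*. All 6 genes kept their direction within each set under both placements, with 1 to 3 libraries a group. In POMC neurons only the 1 µl set held both conditions, and *Elovl5* was at −0.94 in it (3 FD, 3 fed libraries).

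Ratios within a library compare paired genes of related function and need no scaling between libraries. The log2 ratio of *Scd1* to *Scd2* (each TPM plus 1) was −4.05 ± 0.24 (SD, n = 5) in fed and −1.50 ± 1.22 (n = 6) in FD AGRP libraries, with ranges of −4.34 to −3.82 and −3.40 to 0.01 that do not overlap. The difference of 2.54 had p = 0.0043 in the exact two-sided permutation test, the smallest that 462 splits can give, and 0.035 after adjustment over 8 tests. *Scd1* made up 4.41% to 6.34% of the pair's summed TPM in fed and 8.18% to 50.1% (median 30.9%) in FD AGRP libraries, while the sum itself went from 292 ± 58.1 to 145 ± 19.9 TPM. In POMC neurons the share was 1.75% to 7.76% in fed and 2.64% to 5.39% in FD libraries, with sums of 301 ± 44.0 and 294 ± 18.03 TPM (ratio difference −0.12, exact permutation p = 0.73).

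The log2 ratio of *Insig1* to *Insig2* was −0.05 ± 0.65 in fed and −1.17 ± 0.69 in FD AGRP libraries. Its difference of −1.12 had an exact permutation p of 0.022, which was 0.087 after adjustment and did not pass. The corresponding POMC difference was −0.15 (exact permutation p = 0.75). *Srebf1* to *Srebf2* differed by −0.37 in AGRP and 0.34 in POMC neurons (exact permutation p = 0.47 and 0.53), and *Acaca* to *Acacb* by −0.18 and 0.31 (exact permutation p = 0.65 and 0.079). The *Acaca* to *Acacb* ratio rests on *Acacb* values near the pseudocount, and its AGRP difference turned to 0.31 with a pseudocount of 0.1 TPM.

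**Figure D3:**
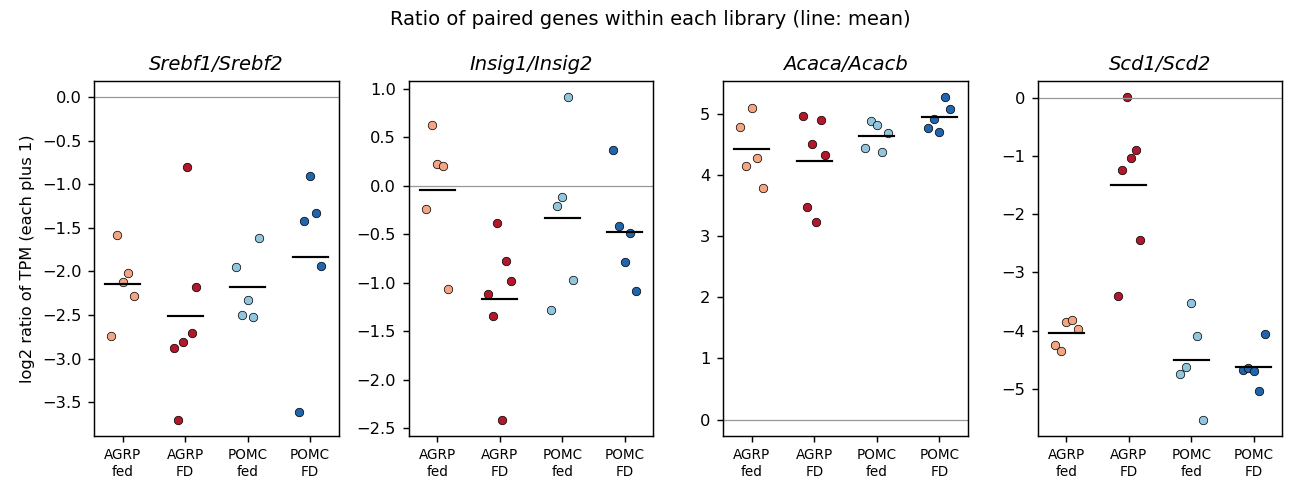
Log2 ratio of the TPM of paired genes (each plus 1, vertical axes, which differ between panels) in each library, with a line at the group mean. The *Scd1*/*Scd2* ratio is above every fed AGRP library in all 6 FD AGRP libraries, and the fed and FD libraries overlap in the other 3 pairs of AGRP neurons.

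In levels per transcript length, *Scd2* was the highest of the 35 genes in fed AGRP (276 ± 55.1 TPM), fed POMC (288 ± 40.7) and FD POMC libraries (283 ± 15.9). In FD AGRP libraries *Cyp51* (198 ± 84.2 TPM) had the highest mean, followed by *Elovl5* (147 ± 35.6), *Acly* (133 ± 31.5) and *Scd2* (106 ± 34.996), neighbours whose library values overlap. *Scd2* stood apart from the next gene, *Sqle* at 149 ± 18.6 TPM, in fed AGRP libraries and from *Pmvk* at 156 ± 41.5 TPM in FD POMC libraries. *Acacb* had the lowest mean in all 4 groups, from 0.294 to 0.763 TPM. The summed TPM of the 35 genes was 2045 to 2395 (mean 2277) in fed and 1661 to 1987 (mean 1764) in FD AGRP libraries, and 2218 to 2404 (mean 2300) in fed and 1892 to 2060 (mean 2001) in FD POMC libraries. TPM are not corrected for composition, and the median log2 ratio of FD to fed mean TPM (each plus 1) over all tested genes was −0.23 in AGRP and 0.08 in POMC neurons, against −0.43 and −0.04 for the 35 genes.

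**Figure D4:**
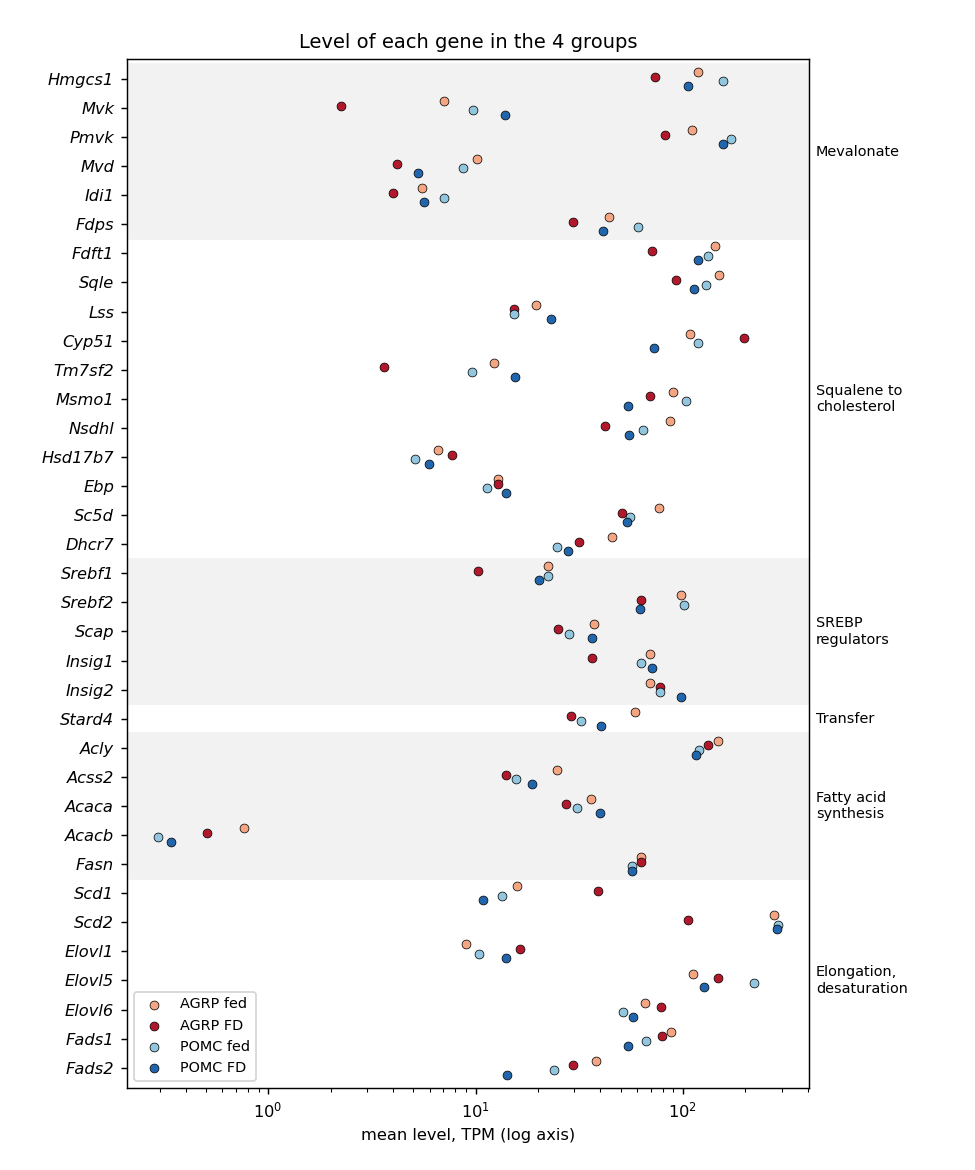
Mean TPM (horizontal log axis) of the 35 genes in rows by role, with 1 point for each of the 4 groups. *Cyp51*, *Scd1* and *Scd2* show FD AGRP neurons apart from the other 3 groups, and *Acacb* lies below 1 TPM in all 4.

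Between the cell types, 2 of the 35 genes were called in fed mice, both lower in AGRP neurons, against 3.33% of all genes called higher and 4.24% lower. *Elovl5* was 2.21-fold lower in AGRP neurons (−1.15 ± 0.19, q = 6.4e-05) and its fed groups did not overlap. *Pmvk* was 1.76-fold lower (−0.82 ± 0.24, q = 0.027), with group means of 47.9 ± 12.9 and 84.5 ± 20.2 normalized CPM, and lost its call (q of 0.0663 to 0.0991) when fed AGRP replicate 1, 3 or 5 or fed POMC replicate 1 or 2 was left out. *Elovl5* met the added criteria, as did 4.01% of all genes.

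In FD mice 4 genes were higher in AGRP than POMC neurons (*Cyp51*, *Scd1*, *Elovl6* and *Fads1*) and 3 lower (*Scd2*, *Fdft1* and *Pmvk*), against 9.28% and 9.27% of all genes. *Cyp51* was 3.18-fold (1.67 ± 0.26, q = 1.2e-05) and *Scd1* 4.13-fold higher (2.05 ± 0.39, q = 2.2e-04), and *Scd2* was 2.38-fold lower (−1.25 ± 0.18, q = 3.8e-06). These 3 genes met the added criteria, as did 8.16% of all genes. *Elovl6* had means of 160 ± 43.5 and 102 ± 21.1 normalized CPM (0.65 ± 0.19, q = 0.018), *Fads1* of 93.2 ± 10.3 and 56.0 ± 20.2 (0.74 ± 0.22, q = 0.017), *Fdft1* of 69.2 ± 15.8 and 101 ± 13.1 (−0.55 ± 0.17, q = 0.022) and *Pmvk* of 41.9 ± 5.07 and 70.2 ± 18.3 (−0.74 ± 0.22, q = 0.018). The q of *Elovl6* rose to 0.0675 without FD AGRP replicate 2 and 0.0581 without FD POMC replicate 3, that of *Fads1* to 0.0596 without FD POMC replicate 3, that of *Pmvk* to 0.0608 without FD POMC replicate 4, and that of *Fdft1* to 0.050, 0.0513 and 0.067 without FD AGRP replicate 1, FD POMC replicate 1 or FD POMC replicate 4. The fed and the FD comparison of cell types are separate libraries, but each shares its libraries with the comparison of FD against fed mice.

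The interaction of cell type and deprivation was called for 4 of the 35 genes, with *Cyp51*, *Scd1* and *Elovl5* moving up in AGRP relative to POMC neurons and *Scd2* down. Over all genes 4.08% were called in the first direction and 2.63% in the second, and 4.58% met the added criteria, among them *Cyp51*, *Scd1* and *Elovl5*. The other 31 genes were not called. *Msmo1* (0.94 ± 0.36, q = 0.12) and *Stard4* (−0.94 ± 0.38, q = 0.14) came next by p, and *Stard4* was called without FD AGRP replicate 2 (−1.22, q = 0.027).

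Beyond the 35 genes, 50 other genes of the same pathways were listed, of which 49 were in the tables and 46 passed the filter. In AGRP neurons 5 of the 46 were upregulated and 4 downregulated, against 5.87% and 4.43% of all genes. In POMC neurons none passed by edgeR (5 at an unadjusted p under 0.05) or limma-voom and 1 by DESeq2 (*Hsd17b12*, lower), against 0.182% and 0.194% of all genes. *Acat2*, the thiolase that feeds the mevalonate pathway, fell from a median of 32.1 (29.6 to 37.3) in fed to 12.2 (7.44 to 23.6) normalized CPM in FD AGRP libraries (−1.37 ± 0.32, q = 0.0045). Its values did not overlap between the AGRP groups.

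A lipoprotein receptor and a sterol exporter moved in opposite directions. *Vldlr*, the receptor, rose from 107 (102 to 184) to 283 (145 to 430) normalized CPM in AGRP neurons (1.12 ± 0.26, q = 0.0039). *Abcg1*, the exporter, fell from 76.3 (50.0 to 95.7) to 33.5 (18.7 to 70.2) (−1.02 ± 0.32, q = 0.040). The call of *Abcg1* was lost when any 1 of 8 of the 11 AGRP libraries was left out (q up to 0.0993).

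*Hsd17b12*, a reductase of the fatty acid elongation cycle, rose from 20.96 (17.2 to 27.5) to 55.8 (43.6 to 73.7) normalized CPM in AGRP neurons (1.36 ± 0.27, q = 9.4e-04). In POMC neurons it was at 47.3 (31.0 to 53.3) in fed and 15.1 (11.6 to 28.7) in FD libraries (−1.17 ± 0.28, q = 0.0504), just past the threshold on the side of no call. Its interaction of 2.53 ± 0.38 (q = 9.2e-05) had the direction of *Elovl5*, which acts in the same cycle. The interaction was also called for *Vldlr* (1.44 ± 0.37, q = 0.015), *Acsl4* (1.26 ± 0.26, q = 0.0023) and *Acsl6* (1.08 ± 0.25, q = 0.0080), acyl-CoA synthetases, and for *Lipa*, the lysosomal lipase (−1.58 ± 0.38, q = 0.010). The 7 genes of SREBP processing and of the liver X receptors were not called in either cell type between FD and fed mice.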

How the data were processed

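RNA-Seq of sorted AGRP and POMC neurons was analysed in 21 libraries, 1 mouse each. The authors trimmed reads with cutadapt 1.7.1, removed abundant sequences with Bowtie2 2.1.0, mapped to mm10 with STAR 2.4.0i and made the deposited counts per gene with HTSeq 0.6.1p1, without strand or normalization. The deposited TPM are the authors' counts divided by summed exon length and scaled within each library. The 92 spike-in and 5 summary entries were kept apart from the genes. Groups came from the sample labels, and the members and gene lists were chosen with earlier results of these data known.

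Genes with CPM over 1 in at least 3 libraries (16513) were scaled by TMM and fitted in 1 edgeR 4.0.16 quasi-likelihood model with 4 groups (R 4.3.3), two-sided, with Benjamini-Hochberg adjustment over all tested genes. This takes the place of the study's limma-voom, run as an alternative (limma 3.58.1, DESeq2 1.42.0). Paired genes were compared by exact permutation of log2 TPM ratios (scipy 1.17.1, pseudocount 1 TPM). The fit was tested on simulated data. Values in every library were given for members called between FD and fed mice or in the interaction, for both genes of each ratio and for the member of highest mean TPM in each role. Of the other pathway genes, those with q under 0.05 and an absolute log2 fold change over 1 were named. Some genes that this rule names are not reported here. *Msmo1*, *Elovl6* and other uncalled members were described beyond that rule. Other pathway genes with no match in the tables were *Faxdc2* alone. Alternatives are given with their effects in the closing section.

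Amplified reads are not independent molecules, so the spread between mice is used throughout and the floor covers counting error only.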

Additional observations from a re-analysis of the deposited data

Results flagged for a closer look

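For 4 of the 35 genes and 5 of 46 other genes tested in the same pathways the change with food deprivation differed between AGRP and POMC neurons by the edgeR interaction test, which called 4.08% of all genes in the positive and 2.63% in the negative direction. The AGRP change minus the POMC change was 1.97 for *Cyp51*, 1.98 for *Scd1*, −0.99 for *Scd2* and 1.57 for *Elovl5*. It was 1.44 for *Vldlr*, −1.58 for *Lipa*, 2.53 for *Hsd17b12*, 1.26 for *Acsl4* and 1.08 for *Acsl6*.

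Single libraries far from the rest of their group were looked for in 15 genes and 4 groups (60 combinations), and 3 were found, as many as chance gives at about 1 in 20. *Stard4* was at 87.6 normalized CPM in fed POMC replicate 1, where the next library was at 52.7. *Scd1* was at 24.9 in FD POMC replicate 5, with the next at 15.1. *Scd2* was at 280 (279.7) in fed AGRP replicate 5, with the next at 439, and the AGRP groups did not overlap with that library included.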

How the results depend on the processing

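The AGRP calls of *Cyp51*, *Scd1*, *Scd2*, *Elovl5* and *Fdft1* between FD and fed mice kept their direction and threshold under limma-voom, DESeq2, RLE factors, no count filter, both blocks, the compared groups alone and each library left out. Of the other calls, *Nsdhl* in AGRP neurons was lost with no count filter (q = 0.0622) and with the compared groups alone (q = 0.0553), *Fdft1* between the cell types in FD mice with the compared groups alone (q = 0.0597), and the *Scd1* interaction with limma-voom (q = 0.0878). Scaling to spike-ins, whose counts were 0.219% to 22.6% of the gene counts, left 0 of the 35 genes called between FD and fed in AGRP neurons, 0 in POMC neurons, 0 between the cell types in fed mice, 2 in FD mice and 0 in the interaction, and moved the median of all genes by −1.11 (POMC, FD against fed) and 1.10 (FD, AGRP against POMC). Under it 3 differences changed sign, *Pmvk* to 0.41 and *Fdft1* to 0.74 between the cell types in FD mice and *Scd2* to 0.15 in the interaction, none past the threshold. These values carry the shift of all genes, and relative to the median of all genes they were −0.69, −0.36 and −0.89, against −0.74, −0.55 and −0.996 with TMM.

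In POMC neurons the single call became 2 with limma-voom (*Msmo1* added), 3 with DESeq2 (*Msmo1* and *Srebf2*), 2 with the spike-in set as a block (*Msmo1*), also when the set was taken by volume alone (2, chosen after seeing the data), and 2 with the compared groups alone (*Srebf2*). Without 1 library the called genes numbered 5 to 7 in AGRP neurons, 0 to 2 in POMC neurons, 1 to 3 between the cell types in fed mice, 5 to 9 in FD mice and 3 to 5 in the interaction. Of the POMC libraries, the count was 0 without FD replicate 2 or fed replicate 2, and 2, with *Msmo1*, without FD replicate 5 or fed replicate 3.

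The replicate numbers are those of different mice, and same-numbered libraries did not deviate together (correlations of −0.19 to 0.12). With the replicate number as a block the AGRP count stayed at 6 and of the single calls only *Fdft1* between the cell types in FD mice was lost (−0.52, q = 0.0754).

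The *Acaca* to *Acacb* difference in AGRP neurons turned to 0.31 with a pseudocount of 0.1 TPM and to 0.74 on counts. Without 1 library the differences of log2 ratios ran, in AGRP and POMC neurons, from −0.34 to 0.015 and 0.23 to 0.37 for *Acaca* to *Acacb*, 2.24 to 2.92 and −0.38 to 0.12 for *Scd1* to *Scd2*, −1.37 to −0.87 and −0.39 to 0.16 for *Insig1* to *Insig2*, and −0.71 to −0.13 and 0.11 to 0.79 for *Srebf1* to *Srebf2*. The AGRP *Scd1* to *Scd2* adjusted p lay between 0.0381 and 0.0762, with fewer splits to draw on, and that of *Insig1* to *Insig2* fell to 0.0381 without fed AGRP replicate 5.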
